A study of Saccharomyces cerevisiae with 30 samples.

Results

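The 10 genes described here carry the transcriptional control of glucose repression and its release in budding yeast. They are the kinase gene SNF1, the activator genes ADR1, CAT8, SIP4 and HAP4, the repressor genes MIG1, MIG2 and MIG3, and RGT1 and MTH1 of the glucose transporter pathway. They were picked by gene name from the 7127 genes of the table, for their known roles, and all 10 passed the filter on low values (a mean of at least 10 normalised counts over the libraries). RNA came from 2 haploid MATa strains of the S288c background with met15-delta-0, ura3-delta-0, his3-delta-1 and leu2-delta-0, grown at 30 °C in YPD, a rich medium with glucose, and given 1 µM beta-estradiol. In the strain with lox-CEN4-lox:KanMX and GDP-creEBD78:LEU2, lox sites flank the centromere of chromosome IV, and only this strain carries KanMX. Cre-EBD78, a recombinase fused to an estradiol-binding domain, is driven in both strains by the sequence labelled GDP. The lox strain is written CEN4* at 0 min, before excision, and cen4- at 30, 60, 120 and 180 min, after beta-estradiol has switched on the recombinase. The control strain, CEN4, carries ura3::GDP-cre EBD78:LEU2 and a centromere without lox sites, and it was sampled at 0, 30, 60, 120 and 180 min of the same treatment. Each of the 10 groups of strain and time had 3 libraries, collected in 3 independent experiments.

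When glucose is plentiful, yeast ferments it and keeps genes for other carbon sources, gluconeogenesis and respiration low. The zinc-finger repressor Mig1 and its relatives Mig2 and Mig3 bind the promoters of such genes. When glucose runs down, the kinase Snf1, the yeast AMP-activated protein kinase, phosphorylates Mig1, which leaves the nucleus, and the activators Adr1, Cat8, Sip4 and Hap4 switch on their targets. In a parallel branch, Rgt1 represses hexose transporter genes together with the corepressor Mth1, which is destroyed when the sensors Snf3 and Rgt2 detect glucose.

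The libraries held 8218002 to 14956813 reads. Values are normalised counts, which are reads divided by a size factor for each library, and errors are SD with n = 3. The summed group mean of 6 a cell markers was 22127 to 51942 normalised counts, against 178 to 214 for 3 alpha cell markers (MF(ALPHA)1, MF(ALPHA)2 and STE3), none of which was at 0. URA3 and MET17, deleted in both strains (met15-delta-0 removes MET17), had 0 reads in all 30 libraries, where 3 reads would be 3.65e-05% of the smallest library. HIS3, for which both genotypes list his3-delta-1, was detected in every group, with means of 552 to 724 normalised counts in the lox strain and 689 to 801 in the CEN4 strain. LEU2, listed as leu2-delta-0 and as the marker of the Cre construct, was lower in the lox strain at every time. It had 2049 ± 52.1 normalised counts in CEN4* cells against 3680 ± 152 in CEN4 cells at 0 min, and 2629 ± 4.68 in cen4- cells against 6096 ± 127 in CEN4 cells at 180 min. The part of this difference in the results was not tested. All 6 a cell markers had a negative excision effect at 180 min, with a median of -0.64 on the log2 scale, and their part in the results below was not tested. How many cells had lost the centromere is not analysed here, and in bulk RNA fewer cells with a transcript and less RNA per cell cannot be told apart.

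Positions are those of the R64 build, and a coding length stands for each gene. CEN4 itself is the 111 bp from 449711 to 449821 of chromosome IV. Of the members, 3 lie on the same chromosome. ADR1 (YDR216W, plus strand) spans 895035 to 899006, 445.2 kb from the centromere. MTH1 (YDR277C, minus strand) spans 1014401 to 1015702, 564.6 kb from it, and SNF1 (YDR477W, plus strand) spans 1412373 to 1414274, 962.6 kb from it. CAT8 (YMR280C, minus strand) is on chromosome XIII from 827028 to 831329, and SIP4 (YJL089W, plus strand) on chromosome X from 265926 to 268415. Chromosome XI holds HAP4 (YKL109W, plus strand, 232227 to 233891) and RGT1 (YKL038W, plus strand, 365605 to 369117). Chromosome VII holds MIG1 (YGL035C, minus strand, 431548 to 433062) and MIG2 (YGL209W, plus strand, 95858 to 97006), and chromosome V holds MIG3 (YER028C, minus strand, 210692 to 211876). None of the 10 overlapped another gene of the RefSeq annotation.

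Many of these genes also carry, upstream of their own start codons, letters that fit the sites of the regulators themselves. The 500 bases before each start codon were searched on both strands for Mig1 sites (GCGGGG or CCGGGG or GTGGGG or CTGGGG), for the Rgt1 site CGGANNA and for the core of the carbon source response element that Cat8 and Sip4 share, which is CC and CCG with 6 bases of any kind between them. Of 6000 such stretches in the R64 genome from RefSeq, 22.7% held a Mig1 match, 42.0% an Rgt1 match and 20.8% a Cat8 and Sip4 match. Among the 10 members the numbers were 6, 6 and 3. A match is a description of letters and not evidence of binding. MIG1 had 4 Mig1 matches, and MIG2 and MIG3 had 5 Rgt1 matches each, while ADR1 and SNF1 had no match of any kind in this window. The sequences below belong to the genes whose values are followed most closely, with 1 or 2 from their relatives for comparison. They read 5′ to 3′ on the strand of the gene, and capitals mark the match, which may be the reverse complement of the motif.
CAT8, Mig1 match, chrXIII:831543-831572 (minus strand): atgcatggagcgGCGGGGctgatattttgt
CAT8, second Mig1 match, chrXIII:831527-831556 (minus strand): ggctgatattttGTGGGGtacgaaagcatg
MTH1, Mig1 match, chrIV:1016155-1016184 (minus strand): cgggaaaaaggtCCGGGGaaatggagtccg
MTH1, second Mig1 match, chrIV:1016114-1016143 (minus strand): ttaggatgactgCCCCACacatttcctcat
RGT1, Rgt1 match, chrXI:365167-365196 (plus strand): cacctcaccaaTAATCCGagcttcttgaaa
SIP4, Cat8 and Sip4 match, chrX:265642-265671 (plus strand): ccattttcgCCGTTCGACCGgtgttttggc
HAP4, Mig1 match, chrXI:231947-231976 (plus strand): cacctctctaaaCCCCAGttttatatcgta
MIG2, Rgt1 match, chrVII:95631-95660 (plus strand): tgcgagaaagtTTTTCCGaaaatcattccc
MIG3, Rgt1 match, chrV:212096-212125 (minus strand): ccttcactaatTTTTCCGtgtataaatgat

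The CAT8 matches end 226 and 210 bases before the start codon. The first MTH1 match overlaps a Cat8 and Sip4 match, the RGT1 match lies within a Cat8 and Sip4 match, and the SIP4 match overlaps a second one on the other strand by 2 bases.

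For each gene it was asked whether its level changed with time in each strain, and whether that change differed between strains. The excision effect is the change since 0 min in cen4- cells minus the change since 0 min in CEN4 cells. It removes what the strains share with time and with beta-estradiol. Both were fitted with limma on log2(normalised count + 1) over all 5948 genes that passed the filter, and a gene was called at a Benjamini-Hochberg adjusted p below 0.05. All changes are on this log2 scale.

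**Figure D1:**
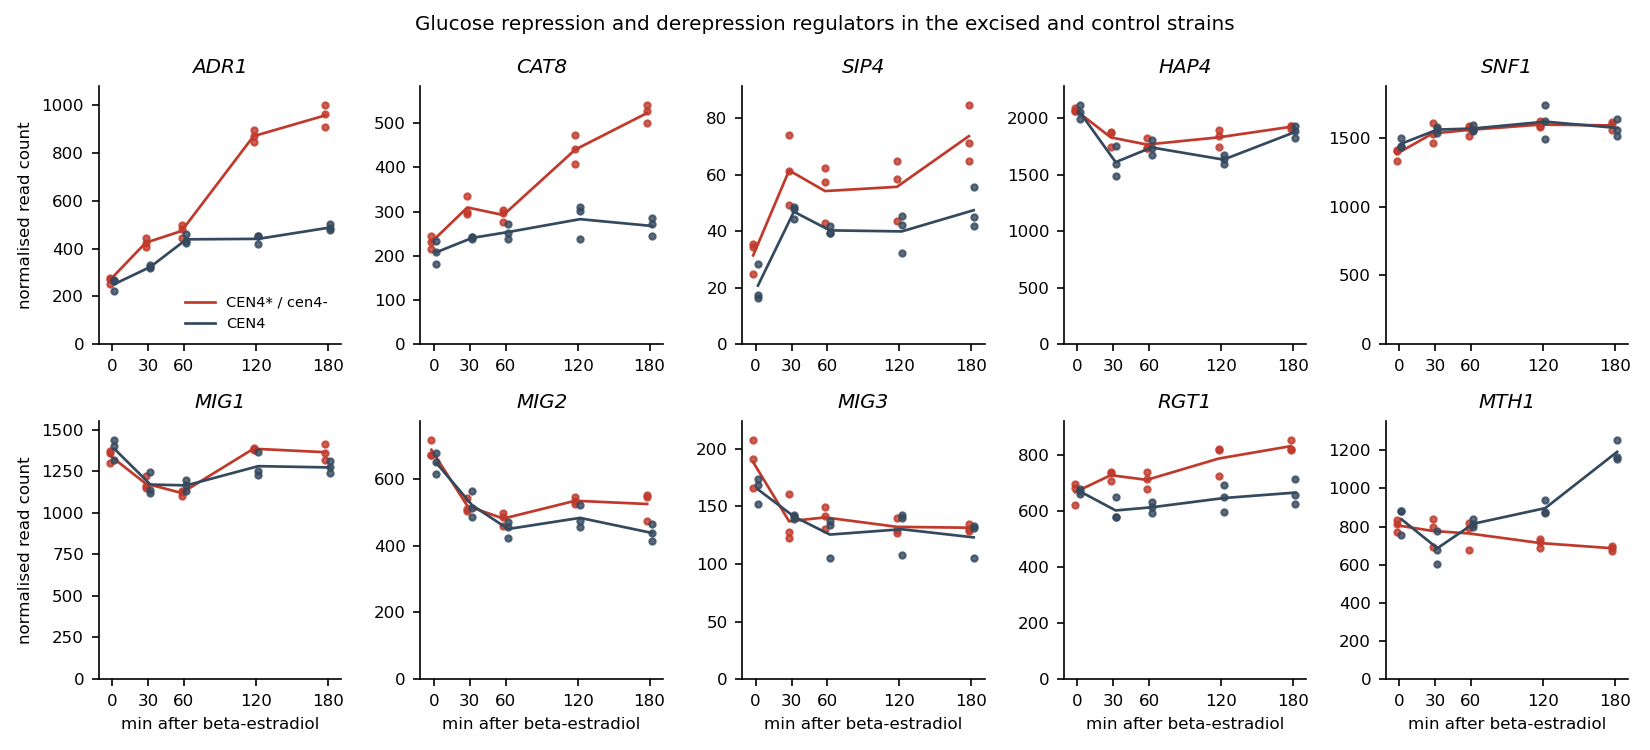
Normalised counts of the 10 regulators (vertical axes, linear from 0) against minutes after beta-estradiol; points are libraries and lines join group means, for CEN4*/cen4- and for CEN4 cells. ADR1 reached 958 normalised counts in cen4- cells against 489 in CEN4 cells at 180 min, while MTH1 was at 686 against 1192.

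ADR1, the activator of alcohol dehydrogenase II and of fatty acid and glycerol use, rose in both strains and rose further after excision. At 0 min it had 251, 278 and 274 normalised counts in CEN4* cells. After excision it had 406, 444 and 425 at 30 min, 444, 498 and 481 at 60 min, 895, 845 and 871 at 120 min, then 910.1, 1001 and 963 at 180 min. In CEN4 cells it had 225, 267 and 264 at 0 min, 331, 322 and 319 at 30 min, 425, 461 and 431 at 60 min, 453, 418 and 452 at 120 min, then 477, 503 and 486 at 180 min. The strains overlapped at 0 and 60 min, and at 30, 120 and 180 min every cen4- library lay above every CEN4 library. The change to 180 min was 1.84 ± 0.07 (SE) in cen4- cells, a 3.57-fold rise (limma adjusted p = 1.61e-34), and 0.96 ± 0.07 in CEN4 cells, a 1.94-fold rise (limma adjusted p = 3.4e-20). By 60 min both strains had risen by a similar amount, with 0.82 in cen4- and 0.80 in CEN4 cells, and the excision effect there was 0.02 (95% interval, not adjusted, -0.17 to 0.21). The excision effect was 0.89 ± 0.09 at 120 min (limma adjusted p = 6.96e-12) and 0.88 ± 0.09 at 180 min (limma adjusted p = 5.42e-12), or 1.84-fold. Only 30 of the 5948 genes had a more positive value at 120 min, then 95 at 180 min. At 30 min the effect was 0.30 and did not pass (limma adjusted p = 0.0789). It passed there with array weights (0.31, limma adjusted p = 0.0370) and without CEN4 replicate 1 at 0 min (0.38, limma adjusted p = 0.0223).

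CAT8, the activator of gluconeogenic genes, had the same order of groups at later times. It had 232, 216 and 245 normalised counts in CEN4* cells at 0 min, then in cen4- cells 294, 299 and 336 at 30 min, 277, 304 and 297 at 60 min, 407, 441 and 473 at 120 min, then 502, 541 and 527 at 180 min. CEN4 cells had 182, 234 and 208 at 0 min, 242, 243 and 237 at 30 min, 251, 239 and 272 at 60 min, 238, 310.0 and 301 at 120 min, then 272, 285 and 246 at 180 min. The strains overlapped at 0 min, and from 30 min on the 3 cen4- libraries lay above the 3 CEN4 libraries at each time, though the difference at 60 min did not pass (0.20, limma adjusted p = 0.0795). CAT8 rose by 180 min in both strains, by 1.18 ± 0.09 in cen4- cells, which is 2.26-fold (limma adjusted p = 8.26e-19), and by 0.37 ± 0.09 in CEN4 cells, which is 1.29-fold (limma adjusted p = 0.000206). At 120 min the excision effect was 0.49 ± 0.12 (limma adjusted p = 0.00202) and at 180 min it was 0.81 ± 0.12, or 1.75-fold (limma adjusted p = 2.11e-07). Here 163 and 121 genes had more positive values at 120 and 180 min.

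SIP4, a relative of Cat8 that binds the same sites and interacts with the Snf1 complex, rose in both strains. CEN4* cells had 24.7, 35.3 and 34.2 normalised counts at 0 min, and cen4- cells had 84.6, 65.0 and 71.4 at 180 min. In CEN4 cells there were 17.5, 28.5 and 16.3 at 0 min, then 44.9, 55.5 and 41.9 at 180 min. The change was 1.21 in cen4- (limma adjusted p = 6.77e-07) and 1.19 in CEN4 cells (limma adjusted p = 1.17e-06). At 180 min the excision effect was 0.02, and its 95% interval (not adjusted) ran from -0.57 to 0.62. SIP4 was the member with the fewest reads, 16 to 98 per library, and had the widest error of the 10.

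HAP4, the activating subunit of the HAP complex, which drives respiratory genes, was the most abundant of the set per length of gene. It changed little between 0 and 180 min. It had 2070.3, 2069 and 2095 normalised counts in CEN4* cells at 0 min, then 1931, 1909 and 1937 in cen4- cells at 180 min. CEN4 cells had 2057, 1998 and 2118 at 0 min, then 1824, 1932 and 1888 at 180 min. It fell by 0.11 in cen4- cells (limma adjusted p = 0.0222) and by 0.13 in CEN4 cells (limma adjusted p = 0.00777). These falls depended on the scaling: with every library scaled to the same total, the changes were 0.20 in cen4- and 0.08 in CEN4 cells. The excision effect at 180 min was 0.02 (95% interval -0.11 to 0.14). It was 0.17 at 30 min (limma adjusted p = 0.173) and 0.15 at 120 min (limma adjusted p = 0.0706), and neither passed. At 120 min it passed with libraries scaled to the same total (0.23, limma adjusted p = 0.00302) and with array weights (0.16, limma adjusted p = 0.0468). At 30 min it passed with array weights (0.24, limma adjusted p = 0.00932). At 30 min HAP4 was lowest in CEN4 cells, with 1878, 1874 and 1744 in cen4- against 1757, 1488 and 1593 in CEN4 cells. Its change in CEN4 cells was -0.35 at 30 min (limma adjusted p = 2.27e-10) and -0.33 at 120 min (limma adjusted p = 1.17e-09). The difference of the strains passed at 30 min (0.19, limma adjusted p = 0.00067) and at 120 min (0.16, limma adjusted p = 0.00138).

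SNF1, the catalytic subunit of the kinase, rose slightly in both strains. It had 1407, 1415 and 1328 normalised counts in CEN4* cells at 0 min, then 1558, 1613 and 1599 in cen4- cells at 180 min. The CEN4 libraries had 1433, 1500.3 and 1439 at 0 min, then 1516, 1559 and 1640.0 at 180 min. The change was 0.20 in cen4- (limma adjusted p = 5.28e-05) and 0.11 in CEN4 cells (limma adjusted p = 0.0261). At 180 min the excision effect was 0.09 (95% interval -0.03 to 0.22, limma adjusted p = 0.241). SNF1 had the smallest range of the 10 members, 0.22 between its lowest and highest group means. With libraries scaled to the same total its excision effect at 180 min was 0.20 and passed (limma adjusted p = 0.00998).

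For the excision effect, 0 of the 3 repressor genes passed at any time by limma, edgeR or DESeq2, and the unadjusted limma p was below 0.05 for MIG1 alone, at 120 and 180 min. MIG1 had 1301, 1360.2 and 1373 normalised counts in CEN4* cells at 0 min, and in cen4- cells 1126, 1099 and 1131 at 60 min and 1315, 1416 and 1360.4 at 180 min. In CEN4 cells it had 1314, 1399 and 1437 at 0 min, 1130.4, 1199 and 1164 at 60 min, then 1272, 1309 and 1236 at 180 min. MIG1 thus dipped at 60 min in both strains, by 0.27 in cen4- (limma adjusted p = 1.38e-06) and by 0.25 in CEN4 cells (limma adjusted p = 5.14e-06). Scaled to the same total, neither dip passed. That scaling gave MIG1 a rise in cen4- cells of 0.32 at 120 min (limma adjusted p = 8.48e-09). At 180 min the scaled rise was 0.33 (limma adjusted p = 3.11e-09). As reported, these changes were 0.04 and 0.02 and did not pass. In CEN4 cells the scaled changes were 0.083 and 0.089, and neither passed. By 180 min the cen4- libraries lay above the CEN4 libraries, with an excision effect of 0.14 (95% interval 0.01 to 0.27, limma adjusted p = 0.0782), and with the scaling to the same total it was 0.24 and passed (limma adjusted p = 0.00167). It also passed with array weights (0.16, limma adjusted p = 0.0287), without CEN4 replicate 1 at 0 min (0.18, limma adjusted p = 0.0333) and without cen4- replicate 1 at 180 min (0.17, limma adjusted p = 0.0499).

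MIG2, which acts beside Mig1 at high glucose, fell in both strains. CEN4* cells had 718, 674 and 673 normalised counts at 0 min, and cen4- cells had 547, 554 and 476 at 180 min. CEN4 cells had 616, 653 and 679 at 0 min, then 464, 437 and 414 at 180 min. It changed by -0.39 in cen4- (limma adjusted p = 2.67e-07) and by -0.56 in CEN4 cells (limma adjusted p = 1.31e-11). Under scaling to the same total the cen4- change was -0.08 and did not pass, while the CEN4 change was -0.36 and did. At 180 min the cen4- libraries were above the CEN4 libraries (difference 0.26, limma adjusted p = 0.000449), but the excision effect was 0.17 and did not pass (95% interval -0.01 to 0.36, limma adjusted p = 0.125). Scaled to the same total the excision effect was 0.28 and passed (limma adjusted p = 0.0104), and it also passed without cen4- replicate 3 at 180 min (0.24, limma adjusted p = 0.0352).

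MIG3, the least abundant repressor gene of the 3, also fell in both strains. It had 208, 166 and 191 normalised counts in CEN4* cells at 0 min, then 135, 129 and 131 in cen4- cells at 180 min, against 152, 173 and 169 at 0 min, then 133, 132 and 105 at 180 min in CEN4 cells. The change was -0.51 in cen4- (limma adjusted p = 0.000185) and -0.42 in CEN4 cells (limma adjusted p = 0.00179). Neither passed with libraries scaled to the same total, where both stayed negative (-0.20 and -0.22). The excision effect at 180 min was -0.09 (95% interval -0.43 to 0.26).

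**Figure D2:**
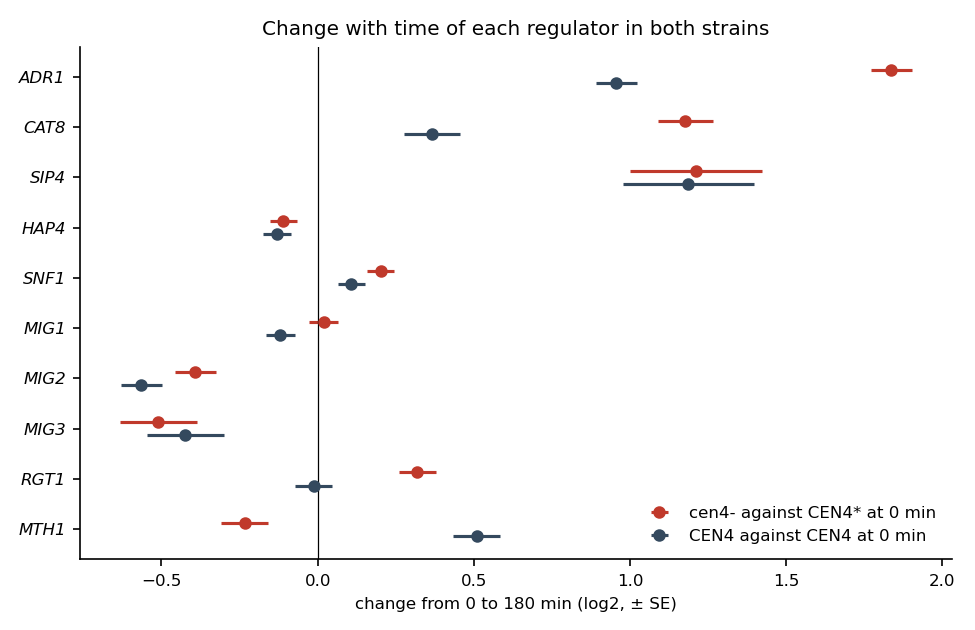
Change from 0 to 180 min in each regulator (horizontal axis, log2, points with SE bars), for cen4- against CEN4* at 0 min and for CEN4 against CEN4 at 0 min, 3 libraries a group. ADR1 stands at 1.84 in cen4- and 0.96 in CEN4 cells, and MTH1 at -0.23 and 0.51, on opposite sides of 0.

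RGT1, the repressor of hexose transporter genes, separated the strains from 30 min on. CEN4* cells had 697, 622 and 682 normalised counts at 0 min, and cen4- cells had 709, 736 and 739.7 at 30 min, 677, 741 and 716 at 60 min, 725, 818 and 820.0 at 120 min, then 822, 819 and 854 at 180 min. CEN4 cells had 678, 662 and 673 at 0 min, 578, 651 and 578 at 30 min, 592, 615 and 633 at 60 min, 598, 692 and 649 at 120 min, then 715, 626 and 657 at 180 min. The strains overlapped at 0 min, and all 3 cen4- libraries exceeded all 3 CEN4 libraries at each later time. The difference of the strains passed at 30, 60, 120 and 180 min (0.28, 0.21, 0.28 and 0.32, limma adjusted p at most 0.00437). The excision effect was 0.29 ± 0.08 at 120 min (limma adjusted p = 0.00579) and 0.33 ± 0.08 at 180 min, or 1.26-fold (limma adjusted p = 0.000912). At 30 min it was 0.28 and did not pass (limma adjusted p = 0.058), and at 60 min 0.22 (limma adjusted p = 0.158). The 30 min effect passed scaled to the same total (limma adjusted p = 0.0467), with the title number as a block (0.0348) and without any 1 of 4 libraries. The 60 min effect passed with array weights (0.26, limma adjusted p = 0.0390). At 30 min RGT1 had changed by -0.16 in CEN4 cells (limma adjusted p = 0.0176), or by -0.04 scaled to the same total, which did not pass. By 180 min RGT1 had risen by 0.32 in cen4- cells (limma adjusted p = 2.66e-06), and its change in CEN4 cells was -0.01, or 0.20 with libraries scaled to the same total.

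MTH1, the corepressor that works with Rgt1, had a negative excision effect at 180 min and dipped early in CEN4 cells. It had 773, 834 and 814 normalised counts in CEN4* cells at 0 min, then 799.6, 842 and 690.3 at 30 min, 793, 820.1 and 679 at 60 min, 688, 719.7 and 732 at 120 min, then 689, 697 and 672 at 180 min in cen4- cells. CEN4 cells had 879.7, 756 and 879.8 at 0 min, 778, 677 and 604 at 30 min, 795, 837 and 812 at 60 min, 876, 941 and 873 at 120 min, then 1157, 1254 and 1165 at 180 min. The groups overlapped up to 60 min, and at 120 and 180 min every cen4- library was below every CEN4 library. In cen4- cells MTH1 fell by 0.23 by 180 min (limma adjusted p = 0.00627), but its change was 0.08 with libraries scaled to the same total. In CEN4 cells it rose by 0.51 (limma adjusted p = 3.79e-07), a 1.42-fold rise, and by 0.72 with that scaling. The excision effect was -0.28 at 120 min (limma adjusted p = 0.0539) and -0.74 ± 0.11 at 180 min, or 0.598-fold (limma adjusted p = 8.43e-07). Only 148 of the 5948 genes had a more negative value at 180 min. At 120 min edgeR (adjusted p = 0.0245) and DESeq2 (adjusted p = 0.0406) called MTH1 on the recovered reads, where limma did not. At 30 min MTH1 had changed by -0.29 in CEN4 cells (limma adjusted p = 0.00108). The excision effect there was 0.23 and did not pass (limma adjusted p = 0.322). The difference of the strains at 30 min was 0.18 (limma adjusted p = 0.067). That difference passed with edgeR (adjusted p = 0.0338) and with libraries scaled to the same total (0.25, limma adjusted p = 0.00597).

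The 3 members on chromosome IV had excision effects at 180 min of 0.88 (ADR1), 0.09 (SNF1) and -0.74 (MTH1). The median over the 768 tested genes of that chromosome was 0.14, and over the 5177 on the other nuclear chromosomes it was -0.03. At 120 min the medians were 0.11 and -0.02. The part of the chromosome in the values of ADR1, SNF1 and MTH1 was not tested.

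**Figure D3:**
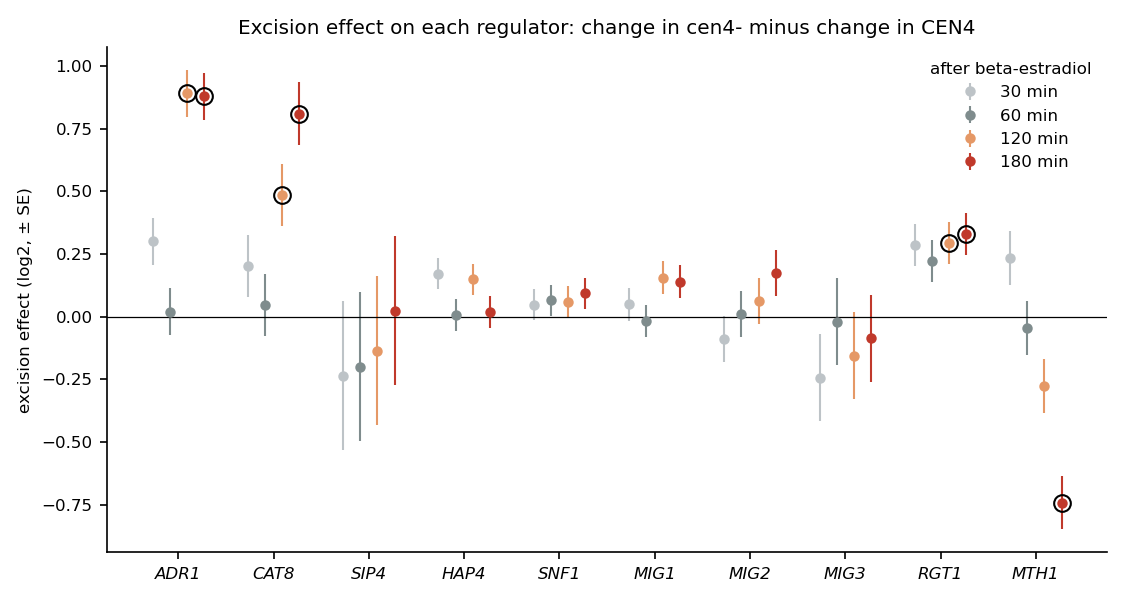
Excision effect of each regulator at 30, 60, 120 and 180 min (log2, points with SE bars). ADR1 and CAT8 stand apart at 120 and 180 min (0.89 and 0.88 for ADR1, 0.49 and 0.81 for CAT8), and MTH1 is the only member called below 0, at 180 min (-0.74).

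Counted over the set, none of the 10 members passed for the excision effect at 30 min, where limma called 1.85% of all genes, or at 60 min, where it called 2.91%. Their unadjusted p was below 0.05 for 4 members at 30 min and for 1 at 60 min, and edgeR and DESeq2 also called 0 at both times. At 120 min 3 members were higher and 0 lower, against 26.1% of all genes called (11.9% higher, 14.2% lower). That count was 5 without CEN4 replicate 1 at 0 min and 5 without CEN4 replicate 1 at 30 min. At 180 min 3 were higher and 1 lower, against 42.3% called (19.8% higher, 22.5% lower), so the share of members called lay near that of all genes. With libraries scaled to the same total, 5 members were higher and 0 lower at 120 min, and 6 were higher and 1 lower at 180 min. Over all genes that scaling gave 1856 higher and 788 lower at 180 min, against 1180 and 1336 as reported, and 1381 and 501 at 120 min, against 707 and 843. The median effect of the members was 0.12 at 180 min, against -0.01 over all genes.

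For the changes with time, the cen4- strain had 8, 8 and 9 members called at 30, 60 and 120 min, against 62.2%, 56.5% and 72% of all genes. The CEN4 strain had 9, 8 and 8, against 63.7%, 57.1% and 70.6%. At 180 min 9 passed after excision, of which 5 were higher and 4 lower, against 75.2% of all genes (37.5% higher, 37.7% lower). In the control strain 9 passed as well, with 5 higher and 4 lower, against 71.2% (36% higher, 35.2% lower). Scaling to the same total shifted the median of all genes by 0.31 in cen4- and 0.21 in CEN4 cells (3747 higher and 1051 lower, and 3304 higher and 1193 lower), and left 7 members higher and 0 lower in cen4- cells, and 6 higher and 1 lower in CEN4 cells. In the difference of the strains at 180 min, ADR1 (0.97), CAT8 (0.97), SIP4 (0.63), MIG2 (0.26) and RGT1 (0.32) were higher in cen4- cells and MTH1 (-0.79) lower, against 64.1% of all genes called (30.9% higher, 33.2% lower). Scaled to the same total, 8 members were higher and 1 lower. For SIP4 the difference was 0.60 already at 0 min, and its excision effect at 180 min was 0.02. Its call in the difference at 180 min was lost without cen4- replicate 1 of that time (0.52, limma adjusted p = 0.0521). The difference called 4 members at 30 min, 1 at 60 min and 6 at 120 min, against 30.2%, 27% and 52.8% of all genes. This difference shares its 180 min libraries with the excision effect.

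Before beta-estradiol, 1 of the 10 genes was called between the strains, against 15.9% of all genes. This was SIP4. It was higher in CEN4* cells by 0.60 (limma adjusted p = 0.0396), although the libraries of the strains overlapped. SIP4 lost that call with edgeR (adjusted p = 0.115) and DESeq2 (adjusted p = 0.134). It also lost it without CEN4 replicate 1 (adjusted p = 0.163) or 3 (adjusted p = 0.203), and without CEN4* replicate 2 (adjusted p = 0.161) or 3 (adjusted p = 0.139).

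The partners of these regulators changed unevenly after excision. Of 10 partners, activating kinases and opponents of Snf1, 2 were higher and 2 lower at 180 min (median -0.04), or 4 and 1 with libraries scaled to the same total (median 0.06). TOS3, a kinase that activates Snf1, had 390.2 ± 7.17 normalised counts in cen4- cells at 180 min against 203 ± 25.8 in CEN4 cells, with an excision effect of 0.63 (limma adjusted p = 9.77e-05). At 0 min TOS3 had 231 ± 22.0 in CEN4* cells, against 186 ± 24.9 in CEN4 cells. REG1, which directs the opposing phosphatase Glc7, had 0.28 (limma adjusted p = 0.000117), and GLC7 itself was lower (-0.22, limma adjusted p = 0.000231). HXK2, the hexokinase that also takes part in repression with Mig1, was lower (-0.35, limma adjusted p = 1.07e-08). Of the 4 corepressors and related repressors CYC8, TUP1, NRG1 and NRG2, 0 passed by limma, edgeR or DESeq2, and 2 had an unadjusted limma p below 0.05 (median -0.14). The most abundant, TUP1, had -0.09 (limma adjusted p = 0.14). Of the 3 DNA-binding partners of Hap4, HAP2 was higher, with 475 ± 8.98 normalised counts in cen4- cells, against 327 ± 23.2 in CEN4 cells (effect 0.53, limma adjusted p = 4.36e-05), and HAP3 and HAP5 did not pass.

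Of 4 further activators of derepression, the fatty acid regulators PIP2 (0.27, limma adjusted p = 0.0246) and OAF1 (0.27, limma adjusted p = 0.00297) were higher. RDS2, an activator of gluconeogenic genes, was lower (-0.20, limma adjusted p = 0.0421), a call that was lost with libraries scaled to the same total, with DESeq2 and with array weights. Of the 6 genes of glucose sensing upstream of Rgt1, 1 passed. SNF3, the sensor of low glucose, had 566 ± 33.3 normalised counts in cen4- cells and 432 ± 31.1 in CEN4 cells at 180 min (effect 0.45, limma adjusted p = 0.000366). Against these lists stands the 42.3% of all genes called at that time.

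Targets were counted in lists of textbook membership, to be read against the 19.8% of all genes called higher and 22.5% called lower for the excision effect at 180 min. Of 8 Adr1 targets, 1 was higher and 0 lower at 180 min (median 0.15), beside the rise of ADR1 itself. That was POT1, the thiolase of peroxisomal fatty acid breakdown, with 380.4 ± 36.4 normalised counts in cen4- cells, against 202 ± 19.6 in CEN4 cells (effect 0.44, limma adjusted p = 0.00509). POT1 was already higher in the lox strain at 0 min, with libraries of 221 to 248 in CEN4* cells, against 162 to 182 in CEN4 cells. ADH2, after which ADR1 is named, had 0.07 and did not pass (limma adjusted p = 0.615). With libraries scaled to the same total, 4 of the 8 were higher (median 0.25).

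Of 8 Cat8 and Sip4 targets, 2 were higher and 4 lower, with a median of -0.32. PCK1, the first enzyme particular to gluconeogenesis, had 439 ± 16.9 normalised counts in cen4- cells, against 375 ± 44.7 in CEN4 cells at 180 min. At 0 min it had 184 ± 10.1 in CEN4* cells and 97.2 ± 12.3 in CEN4 cells, and its excision effect was -0.69 (limma adjusted p = 6.9e-05). The mean of PCK1 was thus above that of CEN4 cells at both times, with overlapping libraries at 180 min, and its change was the smaller one in cen4- cells. MDH2, the cytosolic malate dehydrogenase, was lower (-0.55, limma adjusted p = 3.59e-13), and JEN1, the lactate transporter, was higher (0.63, limma adjusted p = 0.000755). With time, 5 of the 8 rose and 2 fell in cen4- cells, and 7 rose and 1 fell in CEN4 cells (median changes 0.93 and 0.71). Of all genes, 37.5% rose and 37.7% fell in cen4- cells, and 36% rose and 35.2% fell in CEN4 cells.

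All 16 Hap4 targets, genes of the respiratory chain and the citric acid cycle, rose in both strains by 180 min, where 37.5% of all genes rose in cen4- and 36% in CEN4 cells. Their median changes were 0.81 in cen4- and 0.95 in CEN4 cells, while HAP4 itself changed by -0.11 and -0.13. With libraries scaled to the same total, the HAP4 changes were 0.20 and 0.08. Of these 16, 4 had a higher and 6 a lower excision effect at 180 min (median -0.07), or 4 and 4 with libraries scaled to the same total (median 0.03). CIT1, the citrate synthase, had 3454 ± 98.2 normalised counts in cen4- cells, against 2246 ± 100.5 in CEN4 cells (effect 0.36, limma adjusted p = 1.1e-05). At 0 min CIT1 had 923 ± 27.4 in CEN4* cells, against 770 ± 66.6 in CEN4 cells. CYC1, a cytochrome c, had 1030.0 ± 58.9 in cen4- cells, against 1644 ± 13.2 in CEN4 cells (effect -0.44, limma adjusted p = 2.67e-06). QCR7, a subunit of complex III, was lower too (-0.32, limma adjusted p = 3.32e-06). At 0 min 10 of the 16 were already lower and 1 higher in CEN4* cells (median difference -0.18), against 15.9% of all genes called in either direction.

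None of the 5 genes known to be repressed by Mig1 passed for the excision effect at 180 min by limma, edgeR or DESeq2, and 1 had an unadjusted limma p below 0.05 (median 0.04). HXK1, a hexokinase and the most abundant of them, had 3965 ± 83.3 normalised counts in cen4- cells, against 3381 ± 198 in CEN4 cells at 180 min. At 0 min it had 702 ± 35.2 in CEN4* cells, against 616 ± 63.6 in CEN4 cells (effect at 180 min 0.04, limma adjusted p = 0.814). At 120 min HXK1 had 5078 ± 160 in cen4- cells, against 3408 ± 154 in CEN4 cells. For the excision effect at 120 min, 2 of the 5 genes were higher and 0 lower (median 0.11). Of all genes, 11.9% were higher and 14.2% lower at that time. Of the 5, 3 rose and 0 fell in each strain by 180 min, against the shares of all genes given above. Of 6 genes repressed by Rgt1, 0 were higher and 3 lower (median -0.16), beside a higher RGT1 and a lower MTH1. With time, 0 of these 6 rose and 6 fell in cen4- cells by 180 min (median change -1.22). In CEN4 cells 1 rose and 5 fell (median change -1.16), so most of the fall was shared by both strains. HXT4, a hexose transporter, had 6339 ± 382 normalised counts in cen4- cells, against 12987 ± 911 in CEN4 cells at 180 min (0.499-fold in the excision effect, limma adjusted p = 7.76e-08). It had 9822 ± 223 in CEN4* cells, against 10039 ± 470.3 in CEN4 cells at 0 min. HXT1 (-0.34, limma adjusted p = 0.0102) and HXK2 were lower as well. Transporter genes of this family are close copies of each other, so reads may be shared among them and these values are uncertain.

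**Figure D4:**
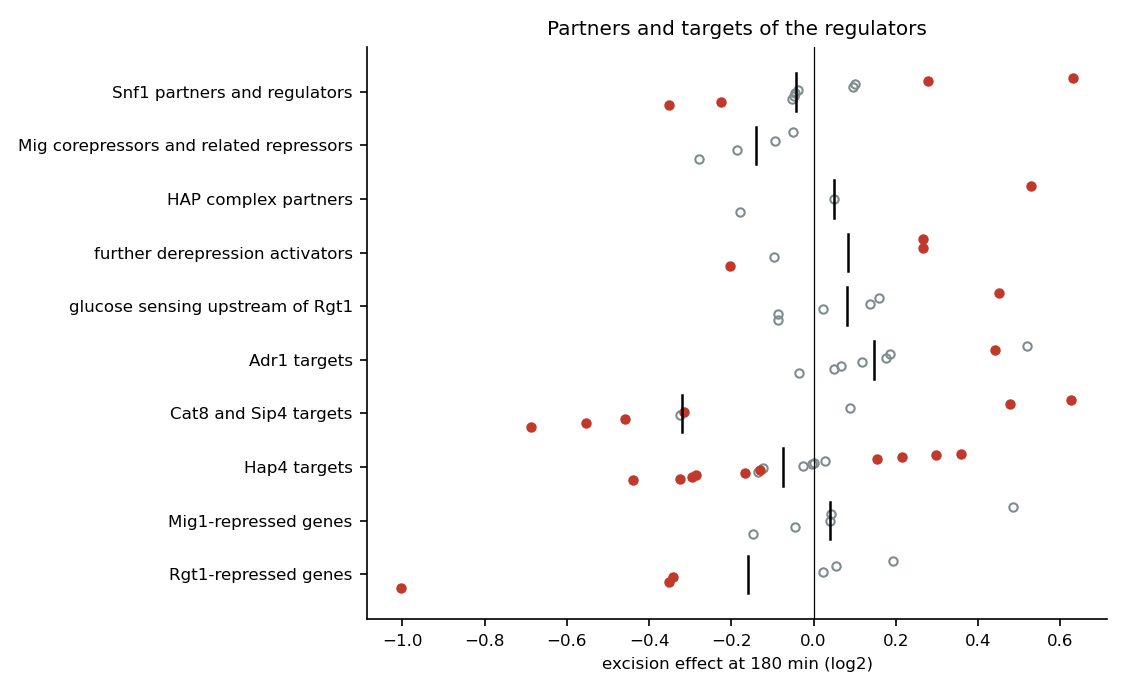
Excision effect at 180 min (log2, horizontal axis) of each gene in the pathway lists, 1 row a list, with the list's median. Genes of a list lie on both sides of 0 in most rows; the median is -0.32 for the Cat8 and Sip4 targets and 0.15 for the Adr1 targets.

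Levels per kb of coding sequence placed the members in a wide order. The median over the 10 group means was 1100.5 normalised counts per kb for HAP4, 842 for MIG1, 822 for SNF1, 608 for MTH1, 453 for MIG2, 190.4 for RGT1, 114 for MIG3, 111 for ADR1, 64 for CAT8 and 18.9 for SIP4. Their ranges over the groups overlap for several neighbours. MIG1 ran from 738 to 914 per kb and SNF1 from 727 to 850.2. ADR1, from 63.5 per kb in CEN4 cells at 0 min to 241 in cen4- cells at 180 min, crossed MIG3 (104 to 159) and RGT1 (171 to 237). ADR1, SIP4 and CAT8 had the widest ranges, with 1.93, 1.81 and 1.33 between the lowest and the highest group mean on the log2 scale.

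The genes whose pattern was most like a member's were found by Pearson's r over the 10 group means of log2(value + 1). As points they share libraries, strains and times. For ADR1 they were YPR117W (0.987) and YMR087W (0.985), for CAT8 YPL247C and CMP2 (0.992 each), for SIP4 BGL2 (0.973) and UGO1 (0.967), and for HAP4 GZF3 (0.943) and YJR056C (0.930). SNF1 was most like RSM27 (0.979) and RMD5 (0.963), MIG1 like ALT1 (0.892) and SDS23 (0.856), MIG2 like PFK27 (0.970) and GPD2 (0.957), and MIG3 like NDT80 and INM1 (0.961 each). RGT1 was most like RPH1 (0.971) and IRC3 (0.964), and MTH1 like PRM1 (0.928) and YIL082W-A (0.923). No pair of members was among the nearest of each other.

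Of the 20 genes next to the members, 18 were tested, and 4 were higher and 2 lower in the excision effect at 180 min. Of all genes, 42.3% were called in that comparison (19.8% higher, 22.5% lower), so the neighbours were not called more often than genes at large. Those named here were chosen after their values were seen. ADR1's neighbour RAD9, a DNA damage checkpoint gene 544 bp away, had an excision effect of 0.66 at 180 min (limma adjusted p = 3.97e-10). YDR215C, 532 bp away on the other side with a mean of 38.5 normalised counts, had 1.26 (limma adjusted p = 0.0014). CAT8's neighbours were ATR2 with 0.40 (limma adjusted p = 0.00265) and GPI12 with -0.01 (limma adjusted p = 0.959). MIG1's neighbour VIR1, 217 bp away, had 0.69 (limma adjusted p = 6.42e-11) where MIG1 itself did not pass. MTH1's neighbour PMP3 had -0.15 (limma adjusted p = 0.0249).

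By the promoter class that the table gives, HAP4, MIG2, MIG3 and MTH1 have a TATA box and MIG1, SNF1 and RGT1 a TATA-like element, while ADR1, CAT8 and SIP4 have none given. At 180 min limma called the excision effect of 54.8% of genes with a TATA box, 43.9% of those with a TATA-like element and 34% of those with none given. Of the members, 1 of 4, 1 of 3 and 2 of 3 were called.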

How the data were processed

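The data are 30 RNA-seq libraries of yeast in 1 table. Its values are a signal that the authors deposited, namely DESeq2-normalised read counts, 1 for each gene in each library. Tools named in the submitters' processing notes are STAR 2.6.1 and DESeq2, with R64 (sacCer3) as build. How reads were counted, whether by strand, and on which annotation is not given in the sources used here, and antisense reads cannot be told apart. All values (100%) were whole multiples of the smallest one in their library, to within 1e-06 reads, which gave back the reads. The table lists 7127 genes; 350 had no read in any library, and 6047 have an R64 annotation entry.

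Tests used limma 3.58.1 in R 4.3.3 (trend and robust options) on log2(value + 1), with 10 group means over all 30 libraries, for the 5948 genes whose mean reached 10. P-values were adjusted by Benjamini-Hochberg within each comparison over all these genes. The pseudocount understates changes of weak genes. Replicate pairs had a chi-square per degree of freedom of 1.48 to 7.75 over genes with at least 40 reads, so none agreed within counting noise. The labels do not say which library came from which experiment. Alternatives were pseudocounts of 0.5 and 5, no filter, a mean of at least 50, libraries scaled to the same total, edgeR 4.0.16 and DESeq2 1.42.0 on the recovered reads, array weights, no trend or robust options, the title number as a block, and leaving out each library. The fits of the excision effect at 180 min were tested on simulated data.

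The members and the gene lists were chosen with earlier results of these data known, from general knowledge of the pathway. Named genes were all 10 members, up to 3 called genes of each list with the largest excision effect at 180 min (or the most abundant where none was called), and the 2 most similar genes of each member. GLC7 and the neighbouring genes were added after their values were seen, and ADH2 was also named outside this rule. Detection limits cover counting error only.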

Additional observations from a re-analysis of the deposited data

Results flagged for a closer look

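The change since 0 min differed between the cen4- and the CEN4 strain, by limma's interaction term, for 4 of the 10 genes. These were 3 at 120 min, where 26.1% of all genes were called, and 4 at 180 min, where 42.3% were, so 4 of 10 lies near the share of all genes. For ADR1 the difference was 0.89 at 120 min and 0.88 at 180 min on the log2 scale. For CAT8 it was 0.49 at 120 min and 0.81 at 180 min. For RGT1 it was 0.29 at 120 min and 0.33 at 180 min. For MTH1 it was -0.74 at 180 min, where MTH1 rose in CEN4 cells. ADR1 and MTH1 are both on chromosome IV, as is SNF1, which was not called. The excision effects of ADR1 and MTH1 had opposite signs, while both genes rose in CEN4 cells by 180 min. The part of the chromosome in these values was not tested.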

How the results depend on the processing

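The calls of ADR1, CAT8 and RGT1 at 120 and 180 min and of MTH1 at 180 min held under each of the 10 alternatives and without each of the 30 libraries in turn. At 180 min the excision effect ranged over the alternatives from 0.87 to 0.98 for ADR1 (adjusted p 9.24e-15 to 1.35e-08), 0.80 to 0.91 for CAT8 (7.62e-09 to 2.39e-05), 0.30 to 0.44 for RGT1 (2.3e-05 to 0.00356) and -0.75 to -0.64 for MTH1 (2.28e-11 to 1.87e-05). The number of members called, 0 at 30 min, 0 at 60 min, 3 at 120 min and 4 at 180 min, was 1, 0, 5 and 7 with libraries scaled to the same total and 2, 1, 5 and 5 with array weights. Leaving out 1 library gave 0 to 1, 0 to 0, 3 to 5 and 4 to 5 members at these times. It gave 0 to 1 at 0 min, 8 to 9 for the cen4- change, 7 to 9 for the CEN4 change and 6 to 7 for the direct difference at 180 min. The 1 call at 0 min became 0 with edgeR, with DESeq2 and with a mean of at least 50, where SIP4 was not tested. Scaling to the same total, which moves the median of all genes, turned the sign of several changes at 120 min and 180 min. After excision these were HAP4 (0.10, then 0.20) and MTH1 (0.10, then 0.080). In the control they were MIG1 (0.083, then 0.089), RGT1 (0.14, then 0.20) and, at 180 min, HAP4 (0.080). It also turned the sign of the SNF1 difference at 120 min (0.12). With the replicate block, 1 member was called at 30 min (RGT1), and MTH1 passed at 120 min. Same-numbered libraries did not deviate together (correlations -0.101 to 0.119, 1 of 15 pairs over 0.1). Only libraries of the same time were compared, and a weak shared effect could go unseen. Whether the numbers pair the samples thus stays undecided. Over all genes, the calls at 30 min were 110, or 196 with array weights, 62 without the trend and robust options, and 68 to 73 without CEN4 replicate 1 or CEN4* replicate 2 at 0 min or cen4- replicate 1 at 30 min. At 60 min they were 173, or 388 with array weights and 271 without cen4- replicate 3. The reads of SIP4, 16 to 98 a library, limit what can be seen of it.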
